A study of Homo sapiens with 8 samples.

Results

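The genes described here encode the nuclear part of the respiratory chain and ATP synthase. They were taken by symbol: NDUFA, NDUFB, NDUFC, NDUFS and NDUFV genes, the NDUFAF assembly factors, UQCR genes, COX4 to COX8 genes, SDHA to SDHD and ATP5 genes. The rule found 85 of the 9245 entries of the table. No measured value entered the rule, but the group was chosen with earlier results of these data known. By complex there were 42 genes of complex I, 4 of complex II, 9 of complex III, 12 of complex IV and 18 of complex V. NDUFA4, named for complex I, was counted with complex IV, where its protein sits. Of the 85, 74 encode structural subunits, and the others are assembly factors, near-identical copies or relatives of subunits. None of the tissue-restricted isoforms COX4I2, COX6A2, COX6B2, COX7A1, COX8C and NDUFA4L2 was among the entries.

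Messenger RNA had been sequenced in 8 libraries of SK-BR-3, an established line of human breast cancer cells that carry an ERBB2 amplification. The 4 groups were the wild type, cells without mir-141 (mir-141 knockout), cells without mir-200c (mir-200c knockout) and cells without both (double knockout), the microRNA genes having been cut with TALENs, which are designed nucleases. Both experimental sets, 1 and 2, held 1 library per group, and every knockout library was 1 clone: 23 (mir-141), 11 (mir-200c) and 55 (double) in set 1, and 10, 29 and 61 in set 2. A deposited value is the log2 ratio of a clone to its own set's wild type, so that −1 stands for a halving, and the 3 clones of a set share 1 wild type. Because each clone stands alone in its group and set, clone, genotype and set cannot be told apart in a single column, and a lower ratio cannot tell fewer expressing cells from less RNA per cell.

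Complexes I to IV pass electrons from NADH and succinate to oxygen along carriers in the inner mitochondrial membrane. Complexes I, III and IV move protons across that membrane, and complex V, the ATP synthase, uses the resulting gradient. Complex II is also an enzyme of the tricarboxylic acid cycle and is wholly encoded in the nucleus, whereas the other complexes join nuclear subunits to subunits made inside the mitochondrion. The nuclear genes lie scattered over the genome, here on 22 chromosomes, and are known to share promoter sites of NRF1, of ETS factors such as GABP, and of YY1.

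The removed microRNAs belong to the mir-200 family and lie next to each other on chromosome 12 (GRCh38.p14), at 6963742 to 6963764 for the mature mir-200c and 6964155 to 6964176 for the mature mir-141. The mature RNAs from RefSeq are shown because their seeds, bases 2 to 8 in capitals, decide which members could be direct targets.
hsa-miR-141-3p: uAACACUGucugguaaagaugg
hsa-miR-200c-3p: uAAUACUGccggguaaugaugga
A 7-base seed site in the longest annotated 3′ UTR (GENCODE 29) was present in 14 of the 85 genes, or 16.5%, against 34.8% of all annotated entries. Such a site pairs with bases 2 to 8, or with bases 2 to 7 and has an A after the match. A site of mir-141 was found in 7 and a site of mir-200c in 9. The members have short 3′ UTRs, with a median of 221 bases against 1009 for all entries. The 14 members with a site, in the double knockout of set 1, had a median log2 ratio of −0.15 and the members without one −0.19, where all entries with and without a site had 0.01 and −0.05. The members without a seed site thus had the lower median of the 2.

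Before the results, 1 property of the table has to be given. The values of set 2 did not line up with the gene names. Where set 2 was read at the row of the same name, the ratios of the double knockouts of sets 1 and 2 were uncorrelated across the 6182 rows described next (Pearson r = 0.00). A search for the row offset at which the neighbouring rows of both sets matched placed those 6182 rows, 66.9% of the table, with a probability over 0.8. The offset drifted along the table between −18 and 17 rows, its median size was 5, and it was 0 for 163 rows or 2.64%. A row's own values were left out when it was placed. At the placed rows the correlation across genes was 0.18, 0.47 and 0.46 for the mir-141, mir-200c and double knockouts. OLFM4, for example, had 2.98 and 4.43 in the mir-200c and double knockouts of set 1, −0.09 and 0.16 in set 2 at its own row, and 5.12 and 6.97 at the placed row. In the mir-141 knockout OLFM4 did not match, with 2.76 in set 1 and −0.22 at the placed row. Not every gene matched at its placed row: FBP1, placed with a probability of 0.995, had −8.51 in the double knockout of set 1 and −0.08 in that of set 2. Why such genes did not match was not tested. Set 1 is therefore described first, and set 2 is given both as listed and at the displaced row, for the 55 members whose row was placed.

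In the double knockout of set 1 the respiratory chain and ATP synthase genes lay below 0 as a group. Their median log2 ratio was −0.18 (quartiles −0.33 and −0.05), against −0.03 for all entries (−0.20 and 0.17). Of the 85 genes, 67 lay below 0, or 78.8%, where 53.7% of all entries did. A ratio under −0.3 was found for 26 members, or 30.6%, against 15% of all entries, and a ratio over 0.3 for only 2, or 2.35%, against 14.9%. Group and table thus differed on both sides of 0: more genes lay well below it and few lay well above.

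The single knockouts of set 1 lay closer to the table. In the mir-141 knockout the median was −0.05 against −0.01 for all entries, 53 members were below 0 (62.4% against 51.9%), and 8 were under −0.3 (9.41% against 8.72%). In the mir-200c knockout the median was −0.10 against −0.02, 51 were below 0 (60.0% against 52%) and 19 were under −0.3 (22.4% against 19.5%). The shares under −0.3 were thus near those of the whole table in both single knockouts. Ratios over 0.3 were fewer than in the table, at 2 members in the mir-141 knockout (2.35% against 9.52%) and 9 in the mir-200c knockout (10.6% against 18.9%). The mir-200c knockout had the widest spread over members, with an SD of 0.38, against 0.19 in the mir-141 and 0.28 in the double knockout.

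**Figure D1:**
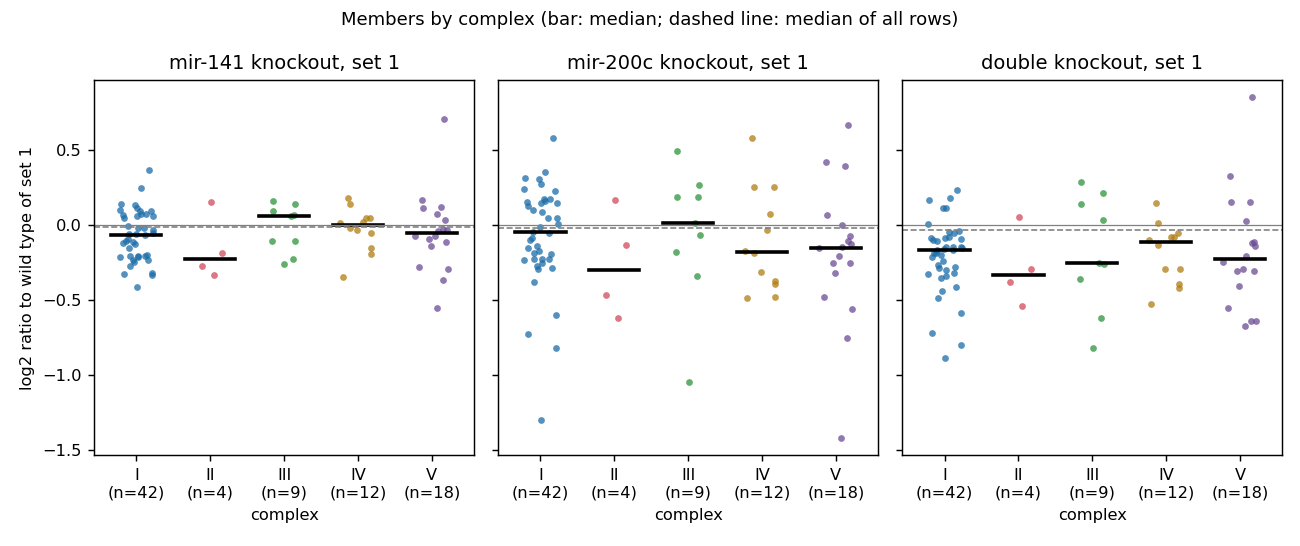
Log2 ratio to the wild type of set 1 (vertical axis) of each of the 85 genes by complex (horizontal axis) in the 3 clones of set 1, with a bar at the median of each complex and a dashed line at the median of all entries. In the double knockout all 5 bars lie below the dashed line, while in the mir-141 knockout those of complexes III and IV lie above it.

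A direct comparison of clones does not need the wild type. The double knockout had a lower ratio than the mir-141 clone of set 1 for 65 of 85 members, where 53.2% of all entries did, with a median difference of −0.13 (all entries −0.02). It was lower than the mir-200c clone for 58 of 85, against 50%, with a median difference of −0.12 (all entries 0.00). The difference from the mir-141 clone was similar in the 5 complexes, with medians from −0.17 in complex V to −0.10 in complex II. The difference from the mir-200c clone was −0.13 in complex I, −0.15 in complex III and −0.14 in complex V, but −0.02 in complex II and 0.06 in complex IV. With 1 clone of each kind these differences have no replicate within the set.

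**Figure D2:**
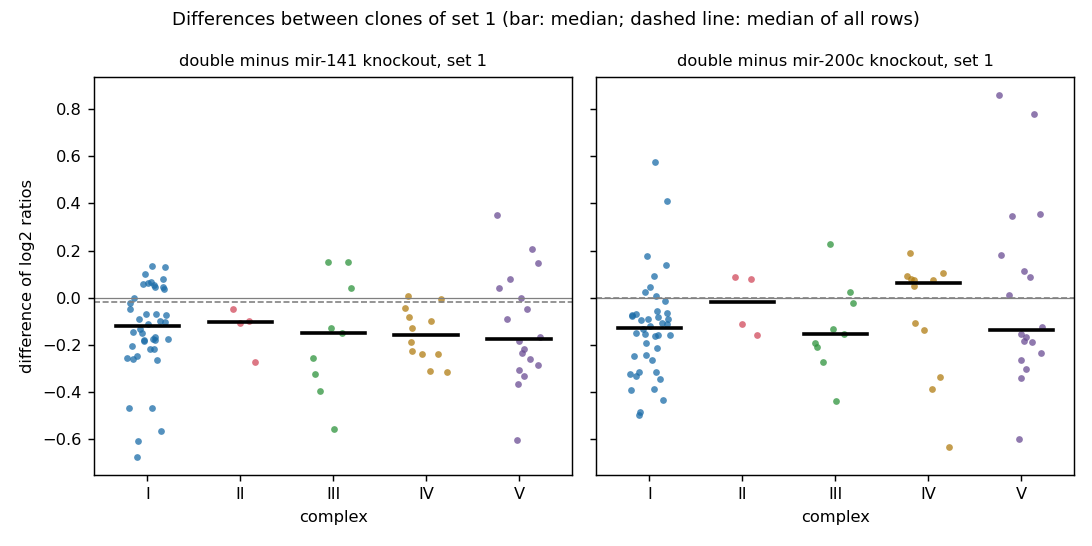
Difference between the log2 ratios of the double knockout and of each single knockout of set 1 (vertical axis) for each member by complex (horizontal axis), with a bar at the median of the complex and a dashed line at the median of all entries. Most points lie below 0, except in complexes II and IV against the mir-200c knockout, where the bars lie at −0.02 and 0.06.

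Complex I, the NADH dehydrogenase, had medians of −0.06, −0.05 and −0.16 in set 1 for the mir-141 knockout, the mir-200c knockout and the double knockout, an order kept for all triplets below. Of its 42 genes, 36 lay below 0 and 11 under −0.3 in the double knockout. The 7 core subunits, which hold the flavin and the iron-sulphur clusters and were singled out after their values were seen, formed a narrow band. All 7 lay between −0.29 and −0.14 in the double knockout, and in the mir-141 knockout all 7 between −0.25 and −0.06. In the mir-200c knockout 6 of 7 were below 0, from −0.29 to 0.05. The 29 accessory subunits, which surround the core, had medians of −0.02, −0.01 and −0.15, with 23 below 0 in the double knockout.

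The lowest gene of complex I was NDUFA12, an accessory subunit (chromosome 12, 94897055 to 95003770, GRCh38), with −0.11, −1.30 and −0.72. NDUFB10, an accessory subunit of the membrane arm (chromosome 16, 1959508 to 1961975), had −0.33, −0.82 and −0.79. NDUFAF2, an assembly factor, had −0.21, −0.73 and −0.89, the lowest value of any member in the double knockout. All 3 were lowest in the clones without mir-200c and nearer to 0 in the mir-141 clone. The highest genes were NDUFC2 (0.10, 0.58 and 0.24), NDUFA8 (0.37, 0.32 and 0.17) and NDUFA11 (0.14, 0.17 and 0.18), accessory subunits that were above 0 in all 3 clones. The 6 assembly factors had medians of −0.21, 0.12 and −0.29, and all 6 were below 0 in the double knockout.

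Complex II, the succinate dehydrogenase, had the lowest medians of the 5 complexes, at −0.23, −0.30 and −0.33, and 3 of its 4 genes lay below 0 in every clone of set 1. SDHB, the iron-sulphur subunit (chromosome 1, 17018722 to 17054170), had −0.27, −0.62 and −0.54. SDHD, a membrane anchor (chromosome 11, 112086773 to 112120013), had −0.33, −0.46 and −0.38. SDHA, the flavoprotein that oxidises succinate (chromosome 5, 218241 to 256700), had −0.18, −0.13 and −0.29. SDHC, the other anchor, had 0.15, 0.17 and 0.06 and was the 1 gene of the complex above 0. Its annotated 3′ UTR is the longest of the complex, and the gene holds 2 sites of mir-141. The neighbours of SDHA on its chromosome also lay below 0, with medians of −0.17, −0.15 and −0.13. Neighbours are the nearest entries that are not members, up to 10 on each side and fewer where the chromosome ends. With these local medians subtracted, complex II had −0.16, −0.13 and −0.21.

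Complex III, which hands electrons to cytochrome c, was uneven, with medians of 0.06, 0.02 and −0.25. UQCR10, a small subunit on chromosome 22, had −0.26, −1.04 and −0.81, UQCRB, another small subunit, had −0.22, −0.18 and −0.61, and the core protein UQCRC2 had −0.10, −0.33 and −0.36. The neighbours of UQCR10 had medians of −0.18, −0.37 and −0.36, so that a part of its distance from 0 was shared by the genes beside it. The Rieske iron-sulphur protein UQCRFS1 and the core protein UQCRC1 had −0.25 and −0.26 in the double knockout. The small subunits UQCRQ (0.06, 0.19 and 0.22), UQCR11 (0.10, 0.27 and 0.14) and UQCRH, the hinge protein (0.16, 0.19 and 0.03), lay above 0 in all 3 clones. UQCRHL had 0.14, 0.50 and 0.29, but it is a near-identical copy of UQCRH, and the split of reads between them is uncertain.

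Complex IV, cytochrome c oxidase, had medians of 0.00, −0.18 and −0.11. Its lowest genes were COX5B, a zinc-binding subunit (chromosome 2, 97646040 to 97648383), with −0.34, −0.39 and −0.53, COX6B1 with −0.15, −0.48 and −0.39, and COX6A1 with −0.19, −0.31 and −0.42. COX7B had −0.05, −0.48 and −0.29. COX5A, at −0.01, −0.17 and −0.09, and NDUFA4, at 0.05, −0.18 and −0.08, lay near 0. The highest were COX7A2 (0.05, 0.58 and −0.05), COX7C (0.14, 0.08 and 0.15) and COX7A2L, a factor of supercomplex assembly (0.18, 0.25 and −0.13). The neighbours of COX7A2 were also high in the mir-200c knockout, where their median was 0.40.

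Complex V had medians of −0.05, −0.15 and −0.22, and 13 of its 18 genes lay below 0 in the double knockout. The 10 genes of the membrane part and the peripheral stalk had −0.05, −0.15 and −0.30, and the 5 genes of the F1 head, which makes ATP, had −0.07, −0.25 and −0.14. ATP5J2, subunit f, had −0.28, −1.42 and −0.64, the lowest ratio of any member in the mir-200c knockout. ATP5G1, 1 of the 3 genes for the c ring, had −0.07, −0.75 and −0.40, while the other c ring genes ATP5G2 and ATP5G3, which encode the same mature protein, had −0.11 each in the double knockout. ATP5J, coupling factor 6 of the stalk, had −0.04, −0.47 and −0.64. ATP5I, subunit e, had −0.36, −0.07 and −0.67. ATP5S, factor B and no structural subunit, had −0.55, −0.56 and −0.20.

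The member farthest above 0 was ATP5A1, the alpha subunit of the F1 head on chromosome 18 (46080248 to 46104334), with 0.71, 0.00 and 0.86. Its neighbours on the chromosome were high in the same clones, with medians of 0.51, 0.10 and 0.76. ATP5B, the catalytic beta subunit that pairs with it, had −0.09, −0.25 and −0.14. The high ratio of ATP5A1 was thus shared by the genes around it and not by its partner in the complex. ATP5L, subunit g, had 0.11, 0.42 and 0.16, and ATP5L2, a near-identical copy whose reads are uncertain for that reason, had 0.12, 0.67 and 0.33. The sources used here do not say whether reads were counted by strand, so genes that overlap on opposite strands are uncertain in the same way.

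Transcript length moved with the ratios of the double knockout, and among the members with those of the single knockouts too. Across all entries Spearman's rho of ratio and length was 0.00 in the mir-141, 0.03 in the mir-200c and 0.14 in the double knockout of set 1. Among the members it was 0.19, 0.28 and 0.33 in the same order, each higher than across all entries. The members' annotated transcripts had a median length of 997 bases against 2958.5 for all entries, and 51 of the 85 fell in the shortest of 10 length classes of equal size. The other genes of that class, from 270 to 1215 bases long, had a median of −0.10 in the double knockout of set 1, while those of the longest class had 0.04. In the mir-141 knockout the same classes had 0.00 and 0.00, and in the mir-200c knockout −0.04 and 0.01. The 51 short members had −0.29. After the median of each member's length class was subtracted, the members had −0.04, −0.06 and −0.12, and 60 of 85 remained below 0 in the double knockout in place of 67. The part of length in the result was not tested further. Subtracting the median of the chromosome neighbours instead gave −0.05, −0.08 and −0.17, with 63 below 0 in the double knockout.

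**Figure D3:**
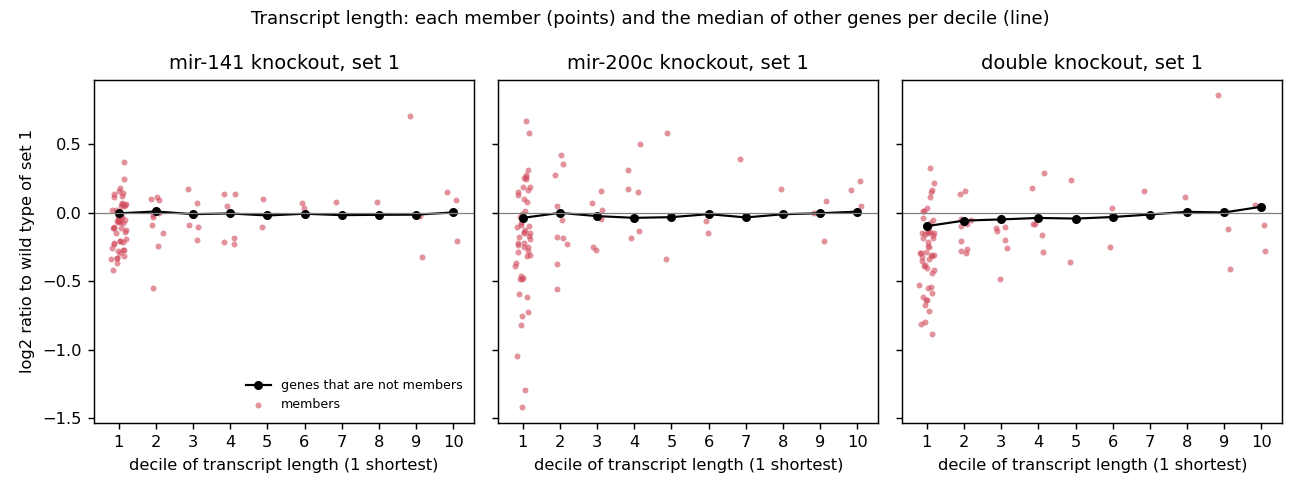
Log2 ratio of each member (red points) and the median of all other genes (black line) in each of 10 classes of annotated transcript length (horizontal axis, 1 shortest) for the 3 clones of set 1. In the double knockout the line climbs from −0.10 in the shortest to 0.04 in the longest class, and most of the 51 members of the shortest class lie below it.

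Read at the displaced row, set 2 gave 55 members, and the double knockout again had the lowest median, while the single knockouts stood in another order than in set 1. The medians were −0.16, −0.07 and −0.21, against −0.03, −0.02 and −0.03 for all placed rows. Of the 55, 43 lay below 0 in the double knockout, against 54.3% of placed rows, and 23 were under −0.3, or 41.8% against 19.5%. In the single knockouts 38 (mir-141) and 32 (mir-200c) of 55 lay below 0, against 54.4% and 52.5%. The double knockout of set 2 was lower than the mir-141 clone for 39 of 55 members (51.7% of placed rows) and lower than the mir-200c clone for 46 (52.7%). In both double knockouts 34 of 55 members lay below 0, against 37% of placed rows, with 42 below 0 in set 1 and 43 in set 2. The sign was the same in both sets for 38 of 55, or 69.1%, near the 66.1% of all placed rows.

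By complex, the double knockout of set 2 at the displaced row had medians of −0.22 for complex I (27 genes), −0.58 for complex II (3), −0.06 for complex III (6), −0.12 for complex IV (7) and −0.22 for complex V (12). Complex II was again the lowest. The 5 placed core subunits of complex I lay between −0.49 and −0.30, all of them below the set 1 values of the same clone type. At the row of the same name, the medians of all 85 members in set 2 were −0.06, −0.08 and −0.06.

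**Figure D4:**
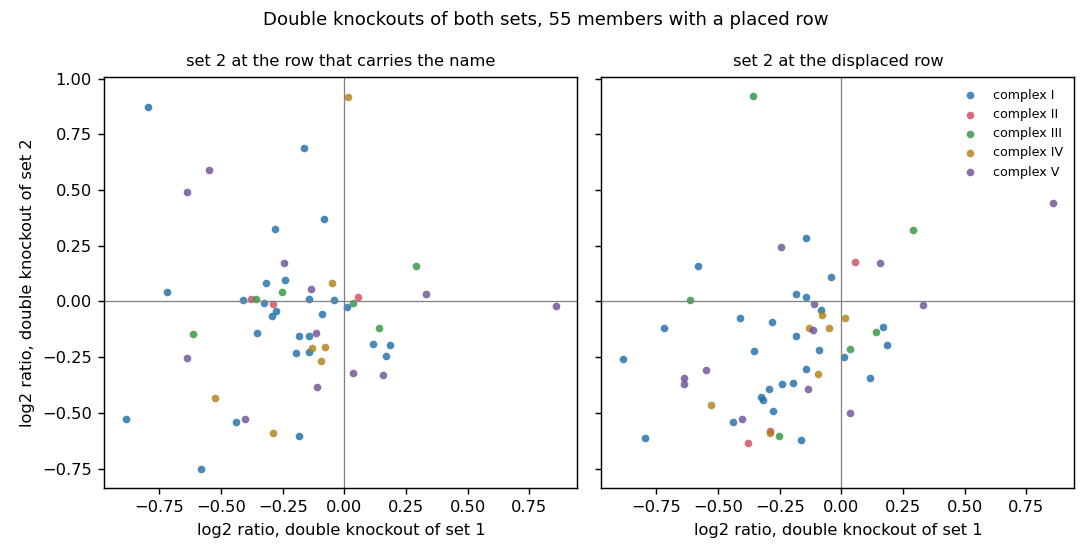
Log2 ratios of the 55 placed members in the double knockout of set 1 (horizontal axis) and of set 2 (vertical axis), at the row of the same name (left) and at the displaced row (right), coloured by complex. On the left the points show no trend (r = 0.00), and on the right 34 of them lie below 0 on both axes (r = 0.36).

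Across the 55 placed members the correlation between sets was 0.14, 0.47 and 0.36 for the 3 genotypes at the displaced row and −0.02, 0.02 and 0.00 at the row of the same name. For the 33 members placed with a probability over 0.95 it was 0.18, 0.49 and 0.63. The points share a wild type within each set and were placed through the agreement of their neighbours, so these values describe the 2 sets and carry no p.

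Several members lay below 0 in both sets, some with like values and some not. COX5B had −0.28, −0.28 and −0.47 at the displaced row of set 2, beside −0.34, −0.39 and −0.53 in set 1. NDUFS6, a zinc-binding accessory subunit of complex I whose row was not shifted, had −0.17, −0.24 and −0.54 beside −0.27, −0.28 and −0.44. SDHD had −0.57, −0.46 and −0.63 beside −0.33, −0.46 and −0.38. The size differed more for other genes of this kind. NDUFB10 had −0.29, −0.38 and −0.61 beside −0.33, −0.82 and −0.79, and ATP5J2 had −0.24, −0.48 and −0.37 beside −0.28, −1.42 and −0.64. COX7B, also at its own row, had −0.66, −0.59 and −0.59 beside −0.05, −0.48 and −0.29. These genes were among the 18 of 55 members below 0 in all 6 clones (32.7% against 15.9% of placed rows), which also held SDHA, 4 of the 5 placed core subunits of complex I, ATP5B, ATP5D, ATP5G1 and ATP5J.

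Other members did not match. NDUFA12, the lowest gene of complex I in set 1, had 0.05, 0.20 and −0.12 at the displaced row. NDUFB5, an accessory subunit of complex I with a site of mir-141, had −0.32, −0.25 and −0.58 in set 1 and 0.05, 0.05 and 0.16 at the displaced row. UQCRC2 had 0.92 in the double knockout of set 2. ATP5A1 had −0.48, −0.27 and 0.44, so that it was above 0 in both double knockouts and below 0 in the single knockouts of set 2. SDHC (0.09, 0.04 and 0.18), UQCRHL (0.49, 0.49 and 0.32) and ATP5L (0.19, 0.20 and 0.17) were the 3 members above 0 in all 6 clones.

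Tests used limma on all rows, with p-values adjusted by the Benjamini-Hochberg method and the experimental set as a block. They measure the spread between sets and, with different clones and possibly shifted rows, not that of repeated cultures. With set 2 as listed, 0 genes (0% of 9245) were called at an adjusted p under 0.05 in the mir-141, mir-200c or double knockout or for loss of either microRNA over both backgrounds, so 0 members were called. The smallest adjusted p was 0.998, 0.793, 0.740, 0.901 and 0.541 in that order, and 248, 499, 581, 476 and 821 genes had an unadjusted p under 0.05. For the double knockout, 8 members had an unadjusted p under 0.05 and all 8 were lower, or 9.41% of the members, where 3.41% of all entries were lower at that p. Without either double knockout or the set 2 wild type the 8 became fewer, and so did all entries lower at that p. The members' median effect for the double knockout was −0.14 with all libraries (all entries −0.02). It was −0.18 without the double knockout of set 2, −0.09 without that of set 1 and −0.18 without the set 2 wild type. For loss of mir-200c 9 members were lower, where 4.84% of all entries were, and for loss of mir-141 3, where 2.52% were. The 3 became fewer without the wild type, the mir-200c clone or the double knockout of set 2, and so did all entries lower at that p. The members' median effect for loss of mir-141 was −0.05 with all libraries and −0.07, −0.05 and −0.08 without these.

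The member with the smallest p for the double knockout was NDUFB5. Its ratios were −0.58 in set 1 and −0.75 in set 2 as listed, with an effect of −0.67 ± 0.16 (SE, limma adjusted p = 0.740). COX6A1 had −0.42 and −0.71, COX5B −0.53 and −0.43, NDUFS6 −0.44 and −0.54, NDUFAF2 −0.89 and −0.53, and ATP5C1, the rotor shaft of ATP synthase, −0.31 and −0.72. In all 6 both values lay below 0, and the adjusted p was 0.740 for each. For loss of mir-200c, ATP5J had −0.45 ± 0.11, COX6A1 −0.36 ± 0.09, NDUFA13 −0.42 ± 0.13, COX5B −0.29 ± 0.09, NDUFS6 −0.26 ± 0.09 and COX5A −0.37 ± 0.14 (limma adjusted p = 0.541 for each). Of these genes NDUFS6 alone was placed at its own row. COX6A1 and ATP5C1 were not placed and the others were placed at another row, so their listed set 2 values may belong to another gene.

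For loss of mir-141 over both sets, NDUFB5 (−0.46 ± 0.11), NDUFAF1 (−0.38 ± 0.14), COX6C (0.68 ± 0.26), NDUFS6 (−0.22 ± 0.09), NDUFA5 (−0.37 ± 0.17) and COX6A1 (−0.21 ± 0.09) had the smallest p, at a limma adjusted p of 0.901. In the mir-141 knockout these were NDUFB5 (−0.37 ± 0.16), ATP5C1 (−0.36 ± 0.18), ATP5S (−0.34 ± 0.18), COX7B (−0.36 ± 0.19), NDUFA2 (0.32 ± 0.17) and NDUFAF2 (−0.40 ± 0.23), at 0.998. In the mir-200c knockout they were COX7B (−0.53 ± 0.19), COX6A1 (−0.40 ± 0.15), ATP5C1 (−0.46 ± 0.18), NDUFC2 (0.39 ± 0.17), COX5B (−0.32 ± 0.14) and UQCR11 (0.33 ± 0.16), at 0.793. Most of these effects, fitted to the values as listed, lay below 0, and none was called. Of these genes NDUFS6 and COX7B alone were placed at their own row. NDUFAF1, NDUFA5, COX6A1, ATP5C1, ATP5S and NDUFC2 were not placed. The others were placed at another row, so the caution above on listed values holds for all but NDUFS6 and COX7B. At the displaced row, mir-141 loss gave −0.05 ± 0.08 for COX6C, −0.12 ± 0.12 for NDUFB5 and −0.22 ± 0.07 for NDUFS6.

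Within set 1 alone, an additive model of both losses leaves 1 residual degree of freedom, the departure from additivity. Limma called 0 genes for loss of mir-141 (0%; 587 with an unadjusted p under 0.05, smallest adjusted p 0.0616) and 0 for loss of mir-200c (0%; 1113, and 0.326). For loss of mir-200c 10 members were lower at an unadjusted p under 0.05, where 5.56% of all entries were: among them NDUFAF2 (−0.70 ± 0.13, adjusted p = 0.335), UQCR10 (−0.80 ± 0.17, 0.347), NDUFA12 (−0.95 ± 0.20, 0.351), NDUFB10 (−0.64 ± 0.15, 0.382), ATP5J (−0.54 ± 0.13, 0.385) and ATP5G1 (−0.54 ± 0.16, 0.401). For loss of mir-141 ATP5A1 was highest (0.78 ± 0.13, 0.455), and ATP5I (−0.48 ± 0.14, 0.670), NDUFAF5 (−0.41 ± 0.13, 0.733), NDUFB5 (−0.33 ± 0.13, 0.785), UQCRB (−0.33 ± 0.14, 0.826) and ATP5D (−0.30 ± 0.13, 0.826) followed. The largest effects of mir-200c loss in set 1 thus included genes of complexes I, III and V. The same model within set 2 had no such excess: at the displaced row 3 of 55 members were lower at an unadjusted p under 0.05, where 5.81% of placed rows were, and as listed 5 of 85, where 5.53% of all entries were.

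With set 2 at the displaced row, limma tested 6182 rows and called 0, 1, 1, 2 and 29 genes in the same order of comparisons, or 0%, 0.0162%, 0.0162%, 0.0324% and 0.469%, with 473, 1038, 1165, 628 and 1159 at an unadjusted p under 0.05. No member was among the called genes. The 29 calls for loss of mir-200c became 0 when any 1 of the 8 libraries was left out. For the double knockout 19 of 55 members were lower at an unadjusted p under 0.05, where 9.8% of placed rows were, for loss of mir-141 9 of 55, where 5.05% were, and for loss of mir-200c 11 of 55, where 10.1% were. The 19 became fewer without either wild type or either double knockout, and so did all placed rows lower at that p. On the same rows with set 2 as listed they were 5, and all placed rows lower were 219 in place of 606. The members' median effect for the double knockout was −0.21 with all libraries (all placed rows −0.03). It was −0.18 without the set 2 wild type and −0.20 without the set 2 double knockout. Without the set 1 wild type it was −0.20, and without the set 1 double knockout −0.21. The 9 for loss of mir-141 became fewest without the set 1 mir-141 clone and without the set 2 mir-200c clone. All placed rows lower at that p became fewer there too. The members' median effect for loss of mir-141 was −0.10 with all libraries and −0.12 and −0.09 without these clones. The smallest adjusted p of a member for the double knockout was that of NDUFB10 (−0.70 ± 0.14, adjusted p = 0.103), followed by COX5B (−0.50 ± 0.11, 0.110), NDUFS6 (−0.49 ± 0.11, 0.117) and SDHD (−0.51 ± 0.13, 0.129). For loss of mir-200c NDUFB10 had −0.50 ± 0.10 (0.0873). Of the 20 members with an unadjusted p under 0.05, ATP5A1 alone was above 0 (0.65 ± 0.27, 0.264).

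Other mitochondrial genes were compared by family. The 75 mitochondrial ribosomal proteins, which translate the subunits made inside the mitochondrion, had medians of −0.09, −0.16 and −0.20 in set 1 and 62 of 75 below 0 in the double knockout, so that a low ratio was not particular to the respiratory chain. At the displaced row of set 2 their medians were −0.13, −0.12 and −0.26. The 76 cytosolic ribosomal proteins, which are also short and abundant, had 0.01, 0.02 and −0.02, close to the table. The 46 proteasome subunits had −0.06, −0.14 and −0.06.

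**Figure D5:**
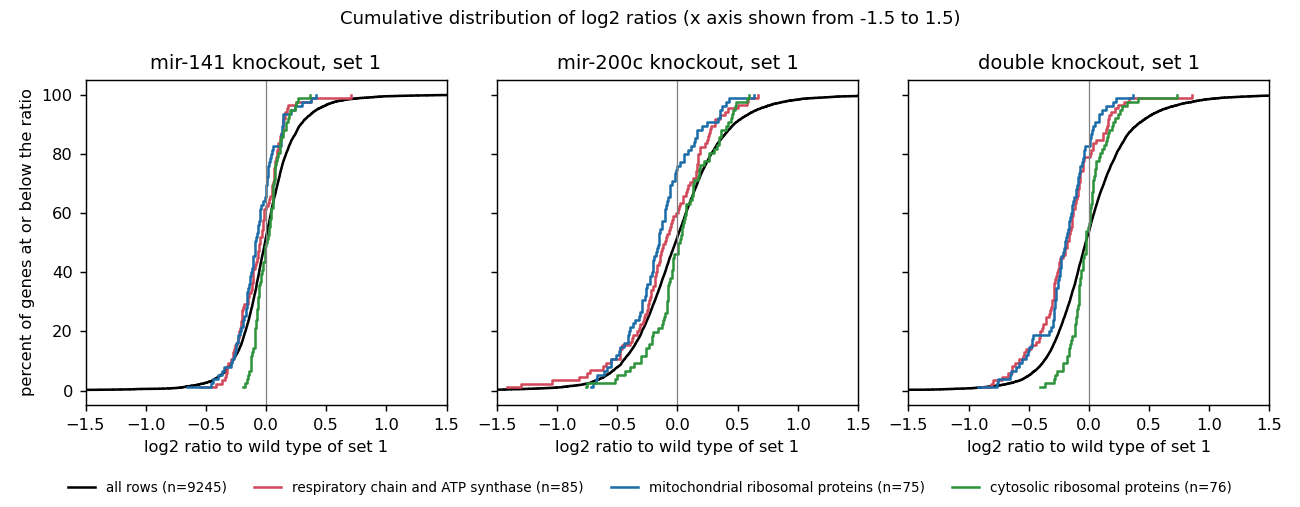
Percent of genes at or below a given log2 ratio (vertical axis) for the 85 members, 75 mitochondrial ribosomal proteins, 76 cytosolic ribosomal proteins and all 9245 entries in the 3 clones of set 1. In the double knockout the curves of the members and of the mitochondrial ribosomal proteins run together to the left of all entries, with medians of −0.18 and −0.20.

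A list of electron carriers, dehydrogenases that feed the chain and related proteins had medians of −0.10, −0.27 and −0.39 in set 1 over 11 genes. It also holds the complex III subunit CYC1 and CHCHD4, AIFM1 and COX17. In the double knockout 7 of the 11 were under −0.3, CHCHD4 (−0.53), CYC1 (−0.48) and AIFM1 (−0.39) among them. The lowest by the mean of the 3 ratios were ETFDH, which passes electrons from fatty acid oxidation to ubiquinone (−0.50), and the import protein CHCHD4 (−0.48), and the highest SQRDL (0.25) and ETFA (0.15). Cytochrome c, CYCS, and the cytochrome c1 subunit of complex III, CYC1, which the symbol rule leaves out, were looked up after the values were seen. CYCS had −0.10, −0.52 and −0.58, and CYC1 −0.17, −0.31 and −0.48, with −0.62 and −0.50 in the double knockout of set 2 at the displaced row. Both lay below 0 in all 6 clones.

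The 17 measured genes of the tricarboxylic acid cycle and pyruvate dehydrogenase had medians of −0.07, −0.26 and −0.30, and 15 lay below 0 in the double knockout. PDHX, a pyruvate dehydrogenase component, was among the lowest by the mean of the 3 ratios (−0.53), and PDHA1 (0.09) and OGDH (0.03) were highest. The 17 glycolysis genes had −0.03, −0.07 and −0.13, with HK2 (−0.48) and ENO1 (−0.24) lowest and PFKP (0.29) and LDHA (0.11) highest. Of the 17 and 17 genes, 9 of the cycle and 0 of glycolysis were under −0.3 in the double knockout. At the displaced row of set 2 the 12 placed genes of the cycle had −0.18 in the double knockout and the 14 of glycolysis −0.25, so the order of these lists differed between the sets.

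Assembly factors outside the symbol rule, 39 of 48 listed, had −0.07, −0.09 and −0.13, with NUBPL (mean −1.35) and TMEM126B (−0.78), both for complex I, lowest and COX16 (0.34) and COX15 (0.27), both for complex IV, highest. The 21 genes of protein import and cristae had −0.10, −0.19 and −0.18, with TOMM22 (−0.45) and TOMM40 (−0.38) of the outer membrane pore lowest and TOMM7 (0.16) and TIMM8A (0.15) highest. Regulators of these genes, 12 of 16 listed, had −0.21, −0.30 and −0.17. YY1 (mean −0.42) and GABPB1 (−0.37), a GABP subunit, were lowest and NRF1 (0.15) and the mitochondrial RNA polymerase POLRMT (−0.09) highest. At the displaced row of set 2 the 10 placed regulators had −0.26, −0.20 and −0.27. NRF1 turned there, with −0.05, −0.21 and −0.28. The fits over both sets as listed called 0 of all 9245 genes, so they could call none of these lists.

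A RefSeq promoter, 250 bases before to 50 after the start of the gene, was matched for 70 of the 85 members (GRCh38.p14). GCATGCGC, the inner part of the NRF1 site, was found on either strand in 15 of them, or 21.4%, against 6.05% of the 7702 promoters of the table and 3.27% of all 27305. CCGGAAG, an ETS core, was in 20 (28.6% against 21.8% and 10.7%), AAGATGGCG, a YY1 site, in 8 (11.4% against 4.79% and 1.85%), and TATAAA in 6 (8.57% against 5.03% and 11.95%). CCGGAAG and AAGATGGCG can share the letters AAG, the other motifs were searched apart, and a match is a description of the sequence only. The 3 promoters below, from 250 bases before the start to the base before it, belong to SDHD, COX5B and ATP5C1. They are shown as examples of promoters with GCATGCGC. SDHD and COX5B lay below 0 in all 6 clones at the displaced row. ATP5C1, whose row was not placed, lay below 0 in all 6 columns as listed. Of the 18 members below 0 in all 6 clones, NDUFS6 and ATP5J hold GCATGCGC as well. Others of the 18, among them NDUFB10, COX7B, ATP5G1 and SDHA, had none of GCATGCGC, CCGGAAG and AAGATGGCG. The RefSeq start can differ from the GENCODE start given above, and capitals mark GCATGCGC and CCGGAAG on either strand. COX5B has 2 matches of CCGGAAG, of which 1 is not wholly within the printed bases and is unmarked.
SDHD, chr11:112086623-112086872, plus strand: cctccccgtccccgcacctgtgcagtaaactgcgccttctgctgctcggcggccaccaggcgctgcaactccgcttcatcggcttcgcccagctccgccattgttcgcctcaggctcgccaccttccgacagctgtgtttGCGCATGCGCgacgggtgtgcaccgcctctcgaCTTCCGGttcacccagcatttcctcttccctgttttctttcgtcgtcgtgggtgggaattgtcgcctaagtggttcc
COX5B, chr2:97645812-97646061, plus strand: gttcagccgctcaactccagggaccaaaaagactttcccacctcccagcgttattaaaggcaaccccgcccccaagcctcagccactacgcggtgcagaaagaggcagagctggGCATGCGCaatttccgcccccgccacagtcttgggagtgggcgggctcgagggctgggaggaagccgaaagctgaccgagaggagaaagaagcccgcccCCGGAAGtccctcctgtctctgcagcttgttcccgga
ATP5C1, chr10:7787927-7788176, plus strand: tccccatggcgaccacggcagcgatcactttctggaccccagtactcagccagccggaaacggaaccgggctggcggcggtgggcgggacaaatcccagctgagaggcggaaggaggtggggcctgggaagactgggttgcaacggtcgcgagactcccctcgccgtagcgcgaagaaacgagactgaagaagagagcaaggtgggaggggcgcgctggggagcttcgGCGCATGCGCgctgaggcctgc
In set 1 the 15 members with GCATGCGC had medians of −0.23, −0.29 and −0.38, and 14 lay below 0 in the double knockout. The other members with a promoter had −0.03, −0.06 and −0.14. Genes outside the group had −0.02, −0.03 and −0.06 with the motif and 0.00, −0.02 and −0.02 without it. The letters were chosen after values of the members were known, and with the full palindrome of the site, found in 5 members, the medians were −0.07, −0.32 and −0.31. Members with the ETS core had −0.09, −0.09 and −0.24 and those without it −0.04, −0.11 and −0.16. Members with the YY1 site had −0.08, −0.24 and −0.22 and those without it −0.04, −0.08 and −0.17. The 6 members with TATAAA had −0.04, −0.40 and −0.24, in the mir-200c knockout lower than those with GCATGCGC.

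Markers of the cell line were checked as far as ratios allow, since no level was given. Of 10 luminal markers 9 were listed, ERBB2 among them, with medians of −0.03, 0.06 and −0.05 in set 1. Of 6 fibroblast markers 1 was listed, COL1A1 (−0.11, −0.41 and −0.15). Of 4 blood markers 3 were listed: CORO1A had −0.01, −0.54 and −0.48, CD68 had 0.52, −0.48 and 0.40, and LCP1 had −0.13, 1.05 and −0.44. These markers did not move one way, and their part in the results was not tested. Mature microRNAs were not analysed here, so the knockout itself was not checked. The depth of each library is unknown.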

How the data were processed

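Poly(A) RNA libraries of 8 SK-BR-3 samples were sequenced on an Illumina HiSeq, per the labels' protocols. TopHat2 and GRCh37.p10 are named in the submitters' processing notes; the sources used here give no counting, scaling or filtering step. The authors deposited log2 ratios of each clone to its set's wild type, with no counts, levels or depth, so no filter or interval by depth was possible. Columns outside the series numbered 0.

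Members and lists were chosen with earlier results of these data known. Wild types were set to 0 and the set was the block, as the labels name a shared set. Limma 3.58.1 (R 4.3.3) fitted every one of the 9245 rows (3 residual degrees of freedom for groups, 4 for additive losses, 1 within set 1). Genes were called where the p adjusted by Benjamini-Hochberg was under 0.05, and the fits were tested on simulated data. The few residual degrees of freedom limit the precision. Medians of single clones have no test.

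Row offsets of set 2 were found with a hidden Markov model over offsets up to 40 rows, leaving out each row's own values (Python 3.11.15, numpy 2.4.6), after the data were seen. Annotation was GENCODE 29 on GRCh38, matched for all 85 members. Named genes were the 3 lowest and 3 highest of each complex by mean set 1 ratio, all of complex II, the 6 smallest p of each fit, 6 genes of an earlier description, and the 2 extremes of each list; 1 of these is not reported here. Alternatives were centring, subtraction of neighbour or length medians, means, structural subunits, other fold limits, a robust prior, no block, and leaving out libraries.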

Additional observations from a re-analysis of the deposited data

How the results depend on the processing

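The levels and depth behind the ratios are unknown, set 2 could be placed for only 55 of the 85 genes, and each clone stands alone in its group and set, so medians of a clone have no error of their own. No member was called by limma under any alternative run. Of the values that answer a comparison, 192 kept within their limits and 76 moved; of the values of single named genes, 402 kept their direction and side of the threshold and 11 turned.

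Leaving out each library in turn gave 0 to 1 calls for the mir-141 knockout, 0 to 1 for the mir-200c knockout, 0 to 2 for the double knockout, and 0 for both losses with set 2 as listed; the calls came without the wild type of set 2 for all 3 knockouts, and without either mir-200c clone for the mir-200c knockout. At the displaced row it gave 0 to 7, 0 to 1, 0 to 3, 0 to 7 (loss of mir-141) and 0 (loss of mir-200c) in place of 0, 1, 1, 2 and 29. Without the replicate block, all 5 fits as listed had 0 calls, and at the displaced row there were 0, 1, 30, 1 and 24. With rows placed at a probability over 0.95, there were 2 for the mir-200c knockout, 8 for the double knockout, 1 for mir-141 loss and 34 for mir-200c loss.

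Medians in set 2 as listed, beside the set 1 values of the report, were −0.064 for all members in the double knockout, −0.069 for complex I in the double knockout, −0.0058, −0.086 and 0.014 for complex II, −0.072 (mir-141) and −0.0045 (double) for complex III, −0.059, −0.26 and −0.21 for complex IV and −0.12, −0.037 and −0.14 for complex V. At the displaced row they were −0.16 for all members (mir-141), −0.12 (mir-141) and −0.22 (double) for complex I, −0.58 (double) for complex II, −0.12 (mir-141) and −0.065 (double) for complex III, −0.16 (mir-141) and −0.067 (mir-200c) for complex IV and −0.15 (mir-141) for complex V. In the double knockout of set 1, subtracting length medians gave −0.12 for all members, −0.078 for complex I, −0.038 for complex IV and −0.14 for complex V; subtracting neighbour medians gave −0.17 for complex IV; the mean was −0.21 for complex I and −0.18 for complex IV (−0.10 in the mir-200c knockout); and structural subunits alone gave −0.29 for complex V. Shares of members under a fold of −0.2 were 25.9%, 35.3% and 47.1%, and under −0.5 1.18%, 10.6% and 14.1%. Over 0.5 in the mir-200c knockout the share was 3.53%. The shares of all entries at these limits are not given here, so the member shares cannot be set against the table. The cause was not tested.

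The additive effects within set 1 turned with set 2 as listed for ATP5A1 (−0.11), ATP5I (0.36), NDUFAF5 (0.024) and ATP5D (0.20) for loss of mir-141, and for UQCR10 (0.036) and NDUFA12 (0.11) for loss of mir-200c. At the displaced row NDUFB5 had 0.082, also with a slower drift, and NDUFA12 0.014, also with a slower drift or a probability over 0.95. Leaving out the tissue-restricted isoforms was not run, since none was measured, and a test without the wild type of set 1 in set 1 alone was not run, since no residual degree of freedom is left.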
